A study of Mus musculus with 13 samples.

Results

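The machinery of V(D)J recombination was followed through 10 genes, all of which were found among the 47937 genes of the count table. They were taken by name as members of the reaction, with earlier results of these data known. The lymphoid-specific genes were Rag1, Rag2 and Dntt, and the general end-joining genes were Dclre1c, Prkdc, Xrcc4, Xrcc5, Xrcc6, Lig4 and Nhej1.

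V(D)J recombination assembles antigen receptor genes from separate gene segments. RAG1 and RAG2 cut the DNA together at recombination signal sequences, and the ends are then joined by nonhomologous end joining, the repair route that all cells use for DNA breaks. In the thymus the T cell receptor β locus is rearranged at the double negative 3 (DN3) stage, RAG levels fall as cells that pass β-selection divide, and both RAG genes are used again when the α locus is rearranged in double positive (DP) cells. Terminal deoxynucleotidyl transferase, encoded by Dntt, adds bases to the junctions without a template.

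The RNA came from DN3 and DN4 thymocytes freshly sorted from untreated C57BL/6 mice that were 6 weeks old. Wt mice were WT;Lck-Cre+ and the others were Opa1fl/fl;Lck-Cre+, so every mouse carried the Lck-Cre transgene, in which an Lck promoter drives Cre recombinase in developing T cells. There were 13 libraries from 7 mice: 3 DN3 Wt, 4 DN4 Wt, 3 DN3 KO and 3 DN4 KO. Both stages came from 6 of the mice, whereas WT40, a Wt mouse, is represented by DN4 cells alone. Opa1, the targeted gene, was at 77.0 to 93.8 CPM (read counts relative to the TMM-scaled size of the library) in the 6 libraries labelled KO and at 85.1 to 112 CPM in the 7 Wt libraries, so its reads over the whole gene did not separate the labels, and the former mice are called KO-labelled. Reads over a gene that keeps its undeleted exons do not measure the deletion. By immunoblot the study found less OPA1 protein in thymocyte lysates of this genotype, and it reported fragmented mitochondria in such thymocytes.

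The libraries held 5926848 to 14148661 counts. The stage labels went with the DN3 markers (Il2ra, Ptcra, Notch3, Hes1 and Dtx1), whose summed level was 1392 to 2190.3 CPM in DN3 and 139 to 248 CPM in DN4 libraries. The DN3 library of mouse WT05 stood apart: 8 genes led by Gm42418 and Lars2, which carry ribosomal RNA-like sequence, took 40.4% of its counts against 0.397 to 1.62% in each other library. The DN4 libraries differed in markers of other cells. Immature single positive (ISP) and DP markers (Cd4, Cd8a, Cd8b1, Cd1d1, Arpp21 and Ccr9) summed to 689 to 986 CPM in DN3 and 1023 to 3735 CPM in DN4. The B cell markers (Cd79a, Cd79b, Ms4a1, Pax5 and Ebf1) summed to 20.8 to 49.9 CPM in DN3 and 165 to 2142 CPM in DN4. In bulk RNA, fewer cells of a type and less RNA per cell cannot be told apart.

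The RAG genes lie side by side on chromosome 2 of GRCm38 (mm10), Rag2 at chr2:101624718-101632529 on the plus strand and Rag1 at chr2:101638282-101649501 on the minus strand, so that they face each other. Dntt lies at chr19:41029275-41059525. The 250 bases before the RefSeq start were read for 9 of the 10 genes from a RefSeq promoter table on GRCm38.p6; Prkdc had no entry. They are shown for the lymphoid-specific genes, for Lig4 as a contrast in base composition and for Xrcc5, whose window holds fewer CpG than those of the other end-joining genes, in lower case with each CG dinucleotide (CpG) in capitals, read 5′ to 3′ on the strand of the gene.
Rag1 (chr2:101649533-101649782, minus): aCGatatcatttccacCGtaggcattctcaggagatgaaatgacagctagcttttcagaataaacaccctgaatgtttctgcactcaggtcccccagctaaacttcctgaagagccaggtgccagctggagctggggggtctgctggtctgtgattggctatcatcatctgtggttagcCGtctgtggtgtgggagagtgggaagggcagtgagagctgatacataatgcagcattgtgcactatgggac
Rag2 (chr2:101624462-101624711, plus): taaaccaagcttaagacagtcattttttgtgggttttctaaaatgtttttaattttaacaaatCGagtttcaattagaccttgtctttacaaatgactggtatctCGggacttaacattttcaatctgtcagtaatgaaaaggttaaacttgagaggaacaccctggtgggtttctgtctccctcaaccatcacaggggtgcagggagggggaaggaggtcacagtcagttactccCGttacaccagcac
Dntt (chr19:41029025-41029274, plus): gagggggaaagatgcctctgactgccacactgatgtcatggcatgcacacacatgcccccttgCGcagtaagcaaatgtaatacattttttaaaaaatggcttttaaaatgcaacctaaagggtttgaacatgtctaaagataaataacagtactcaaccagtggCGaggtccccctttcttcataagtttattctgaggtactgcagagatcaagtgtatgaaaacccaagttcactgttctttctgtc
Xrcc5 (chr1:72307171-72307420, plus): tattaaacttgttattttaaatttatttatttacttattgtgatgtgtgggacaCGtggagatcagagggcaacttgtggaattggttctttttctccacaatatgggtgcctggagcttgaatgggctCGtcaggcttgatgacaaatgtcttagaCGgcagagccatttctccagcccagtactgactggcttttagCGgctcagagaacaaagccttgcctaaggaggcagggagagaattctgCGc
Lig4 (chr8:9976312-9976561, minus, the downstream of 2 listed starts): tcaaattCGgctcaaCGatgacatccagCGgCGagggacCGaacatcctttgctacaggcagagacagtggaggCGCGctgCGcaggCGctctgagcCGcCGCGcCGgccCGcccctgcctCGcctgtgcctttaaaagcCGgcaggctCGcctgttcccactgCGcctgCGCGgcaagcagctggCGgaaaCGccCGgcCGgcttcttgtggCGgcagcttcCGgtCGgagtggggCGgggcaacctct

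The lymphoid-specific windows held 3 CpG in Rag1, 3 in Rag2 and 2 in Dntt, below the median of 6 over all 32841 promoter windows of the table. Such low counts were common: 37.8% of all windows had as few as Rag1 and Rag2, and 29.0% as few as Dntt. Windows of the end-joining genes ranged from 5 CpG in Xrcc5 through 8 in Dclre1c and 9 in Nhej1 to 25 in Xrcc6, 26 in Xrcc4 and 27 and 28 at the starts of Lig4. The E-box core CANNTG, searched on both strands, was found 3 times in Rag1, 1 time in Rag2 and 3 times in Dntt, and is present in 66.2% of all windows. Among the end-joining genes it was found 2 times in Dclre1c and in Xrcc5, 1 time in Xrcc6, Nhej1 and each Lig4 window, and 0 times in Xrcc4. The RUNX core TGTGGT occurred 2 times in Rag1, at 81 and 67 bases before the start, and in no window of the other members; 14.0% of all windows hold it. The GC box core GGGCGG was in the windows of Dclre1c, Xrcc4, Xrcc6, Lig4 and Nhej1 and in none of the lymphoid-specific windows, against 32.7% of all windows. None of the 9 genes had TATAAA, which 12.4% of windows hold, or TGTTTAC, which 3.17% hold. These matches describe the sequence and were not tested as binding sites. By GENCODE M21 the 250 bases of the Xrcc6 window all lie in an exon of Xrcc6, which starts further upstream there, and the windows of Xrcc6, Xrcc4 and the upstream start of Lig4 overlap exons of the opposite-strand genes Desi1, Tmem167 and Abhd13.

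Between genes, levels were compared per kilobase of annotated exon (CPM per kb). Dntt was the highest of the 10 genes in every group, at 717 ± 174 CPM per kb (SD, n = 3) in DN3 Wt and 329 ± 89.9 (SD, n = 4) in DN4 Wt. Rag1, the catalytic subunit of the recombinase, followed at 125 ± 25.4 in DN3 Wt and overlapped Xrcc6, which encodes the Ku70 subunit of the end-binding Ku heterodimer, at 106 ± 7.99. Xrcc5, which encodes the Ku80 subunit, was at 24.0 ± 1.56 and overlapped Rag2, the partner of RAG1, at 22.4 ± 5.75. Lig4, the ligase that seals the ends, was at 16.4 ± 1.55. The other genes were below 8 CPM per kb on average in DN3 Wt. These were Prkdc, the catalytic subunit of the DNA-dependent protein kinase, Nhej1, which encodes the XLF factor, Dclre1c, which encodes the hairpin-opening nuclease Artemis, and Xrcc4, the partner of ligase 4. Within a group, neighbours in this order overlapped in most cases below Lig4. With the longest transcript in place of all exons, Rag1 and Xrcc6 changed places in DN3 Wt and DN4 Wt.

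**Figure D1:**
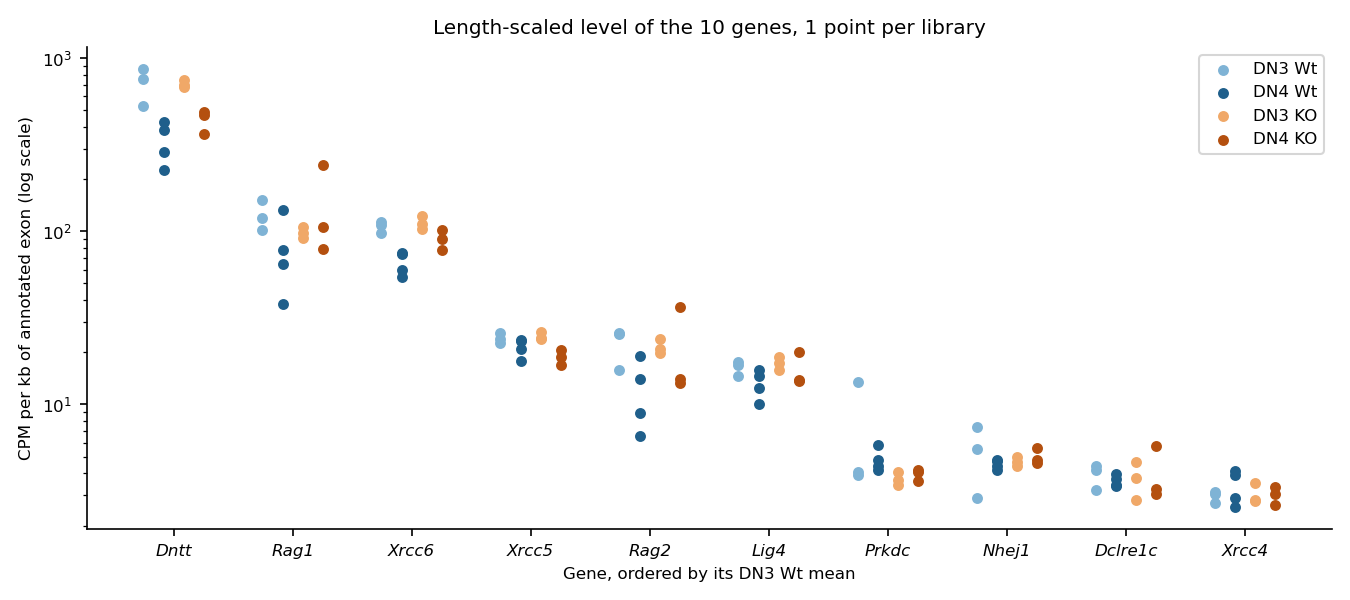
Level of each gene in CPM per kb of annotated exon on a log axis, with 1 point per library and genes ordered by their DN3 Wt mean. Dntt sat above the other genes in every library, Rag1 and Xrcc6 came next, and Prkdc in 1 DN3 Wt library lay above the other Prkdc points.

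DN4 cells had less Dntt RNA than DN3 cells in both genotypes. In DN3 Wt libraries Dntt was at 1204 CPM in mouse WT05, 1982 in WT46 and 1742 in WT48, and in DN4 Wt libraries at 653 in WT05, 972 in WT40, 875 in WT46 and 519.5 in WT48. In KO-labelled mice KO45, KO49 and KO51 it was at 1605, 1565 and 1710.2 CPM in DN3 and at 1080.3, 833 and 1117 CPM in DN4. Every DN4 library lay below every DN3 library of its genotype, and each of the 6 mice with both stages had the lower value in DN4. Such separation was common: the stages did not overlap in 35.0% of all genes tested in Wt mice (15.0% lower in DN4) and in 38.7% in KO-labelled mice (16.7% lower). Dntt fell by 1.15 on the log2 scale in Wt mice (SE 0.25, edgeR quasi-likelihood adjusted p = 0.0134) and by 0.71 in KO-labelled mice (SE 0.14, adjusted p = 0.0106). In Wt mice the call was lost without the DN3 library of WT46 (adjusted p = 0.0544) or the DN4 library of WT05 (adjusted p = 0.0502), with Dntt still lower in DN4. In KO-labelled mice it was lost when all 13 libraries entered a single fit (adjusted p = 0.0552). Summed markers of plasmacytoid dendritic cells (Siglech, Tcf4 and Bst2) were also lower in DN4 without overlap, at 149 to 188 CPM in DN3 and 94.9 to 148 CPM in DN4 libraries, and so were those of myeloid cells (Lyz2, Csf1r, Itgam and Cd68), at 23.1 to 31.3 CPM in DN3 Wt and 11.4 to 17.1 CPM in DN4 Wt, with medians of 24.5 and 13.6 CPM in KO-labelled mice. Siglech was at 0 in every DN3 library and at most 0.293 CPM in DN4, so the plasmacytoid sum rested on Tcf4 and Bst2. The myeloid marker Csf1r was at most 0.644 CPM in any library, so that sum rested on the other myeloid markers. The part of these cells in the level of Dntt was not tested.

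Rag2 was lower in DN4 in most mice but did not pass the edgeR test. In Wt mice it was at 53.8 (WT05), 88.1 (WT46) and 87.9 CPM (WT48) in DN3, and in DN4 at 30.4 (WT05), 65.6 (WT40), 47.8 (WT46) and 22.4 CPM (WT48). In KO-labelled mice the values of KO45, KO49 and KO51 were 82.2, 71.2 and 67.5 CPM in DN3 and 125, 45.8 and 47.9 CPM in DN4. The Wt stages overlapped through WT05 in DN3 and WT40 in DN4, and mouse KO45 was the 1 mouse of 6 with the higher value in DN4. The log2 fold change of Rag2 was -0.92 in Wt mice (SE 0.35, 95% interval -1.71 to -0.12, adjusted p = 0.0946) and -0.05 in KO-labelled mice (SE 0.36, interval -0.88 to 0.78, adjusted p = 0.943). DESeq2 called Rag2 lower in the same Wt libraries (-0.90, adjusted p = 0.0447). Without the DN4 library of KO45 the change in KO-labelled mice was -0.71 (adjusted p = 0.0159).

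Rag1, like Rag2, varied widely over the DN4 libraries and did not pass the edgeR test. In DN3 it was at 1007 (WT05), 792 (WT46) and 675 CPM (WT48) in Wt mice and at 641 (KO45), 702 (KO49) and 606 CPM (KO51) in KO-labelled mice. In DN4 it was at 427 (WT05), 875 (WT40), 517 (WT46) and 251 CPM (WT48), and at 1590.4 (KO45), 519 (KO49) and 703 CPM (KO51). All 3 Wt mice with both stages had less Rag1 in DN4, while KO45 and KO51 had more and KO49 less, and the KO-labelled stages overlapped. The Wt stages overlapped through WT40, which has no DN3 library. The log2 fold change was -0.70 in Wt mice (SE 0.36, interval -1.53 to 0.13, adjusted p = 0.21) and 0.50 in KO-labelled mice (SE 0.36, interval -0.33 to 1.33, adjusted p = 0.376). Without the DN4 library of KO45 the latter was -0.14 (SE 0.16).

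The 6 mice sampled at both stages allow each DN4 library to be set against the DN3 library of the same mouse, which leaves out WT40. With mouse as a replicate block, Rag1 and Rag2 passed in Wt mice, with log2 fold changes of -1.12 (SE 0.22, adjusted p = 0.0102) and -1.24 (SE 0.24, adjusted p = 0.00914), and 4 of the 10 genes were called, all lower, in place of 2. In that paired fit 19.7% of all 13181 genes tested were called and 6.65% were called lower. Leaving out only WT40 without pairing gave -1.08 for Rag1 (adjusted p = 0.0336) and -1.22 for Rag2 (adjusted p = 0.0264). Other libraries left out moved Rag1 the other way, to -0.53 without DN3 WT05 (adjusted p = 0.383) and -0.47 without DN4 WT48 (adjusted p = 0.305), and to -0.31 without both (adjusted p = 0.456), where Rag2 was at -0.91 (adjusted p = 0.0472). These held the highest DN3 and the lowest DN4 Wt level of Rag1, so leaving them out narrows its change by construction. WT40 held the highest DN4 Wt levels of Rag1 and Rag2, so leaving it out widens theirs by construction. In KO-labelled mice the paired fit left Rag1 at 0.32 (adjusted p = 0.378) and Rag2 at -0.20 (adjusted p = 0.495), and 3 of the 10 genes were called lower (Dntt, Xrcc5 and Xrcc6), where 37.2% of all 13185 genes were called and 18% were called lower.

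**Figure D2:**
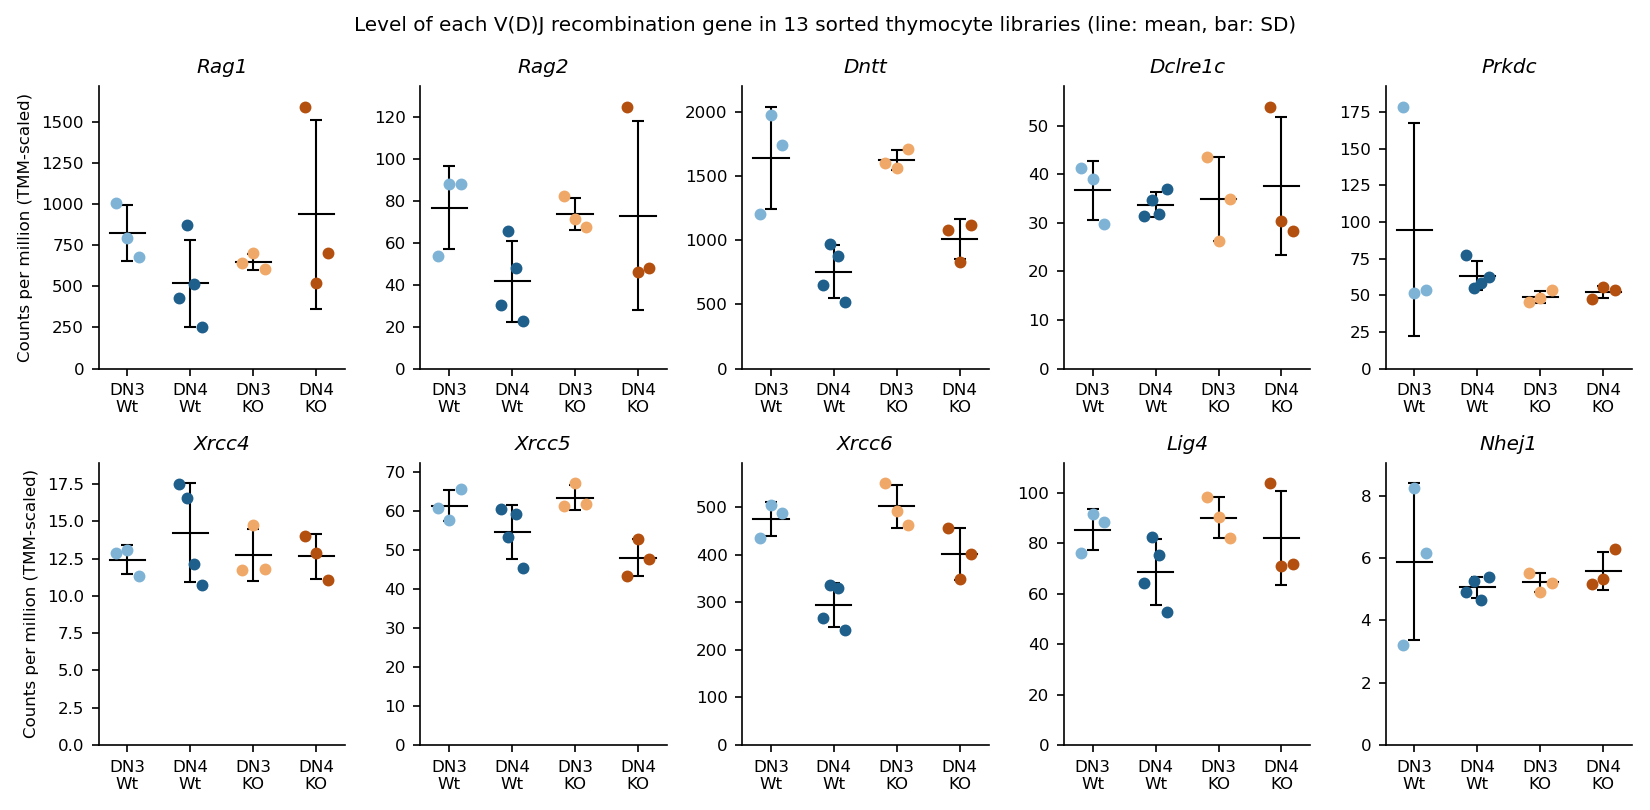
Level of each of the 10 genes in CPM on a linear axis from 0, with 1 point per library, a line at the group mean and a bar for 1 SD. The stages of Dntt and Xrcc6 did not overlap in either genotype, nor did those of 35.0% (Wt) and 38.7% (KO-labelled) of all genes, and mouse KO45 gave the highest DN4 point for Rag1, Rag2, Dclre1c, Xrcc6 and Lig4.

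Of the 7 end-joining genes, edgeR called 1 in each genotype, Xrcc6 in Wt mice (22.9% of all genes called) and Xrcc5 in KO-labelled mice (18.6%). Xrcc6 was at 436 (WT05), 504 (WT46) and 487 CPM (WT48) in DN3 Wt and at 268 (WT05), 336 (WT40), 331 (WT46) and 242 CPM (WT48) in DN4 Wt. In KO-labelled mice it went from 549.6, 492 and 462 CPM in DN3 to 457, 348 and 401 CPM in DN4 (KO45, KO49 and KO51). The stages did not overlap in either genotype. With Dntt, and with Xrcc5 in KO-labelled mice, this made 2 of the 10 genes in Wt and 3 of the 10 in KO-labelled mice, all lower in DN4. The shares of all genes given for Dntt were 15.0% and 16.7% for lower alone, and 35.0% and 38.7% in either direction. Xrcc6 fell by 0.72 on the log2 scale in Wt mice (SE 0.14, adjusted p = 0.00871). In KO-labelled mice its change was -0.35 (SE 0.14, adjusted p = 0.12), and -0.37 with mouse as a block (SE 0.09, adjusted p = 0.0103).

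Xrcc5, the partner of Xrcc6, passed in KO-labelled mice. There it was at 61.2, 67.1 and 61.9 CPM in DN3 and at 43.4, 52.8 and 47.8 CPM in DN4 (KO45, KO49 and KO51), without overlap, and fell by 0.42 on the log2 scale (SE 0.12, adjusted p = 0.0394). This call was lost when any 1 of the 6 libraries was left out, with adjusted p from 0.0516 to 0.0978. In Wt mice Xrcc5 was at 57.7 to 65.6 CPM in DN3 and 45.3 to 60.5 CPM in DN4, with a log2 fold change of -0.19 (SE 0.13, adjusted p = 0.32). Whether the change of Xrcc5 differed between the genotypes was tested as an interaction, with an estimate of -0.23 (interval -0.60 to 0.14, adjusted p = 1).

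The other end-joining genes did not pass in either genotype. Lig4 was at 76.4 to 91.8 CPM in DN3 Wt and 52.6 to 82.6 CPM in DN4 Wt, with a log2 fold change of -0.34 (interval -0.71 to 0.03). Dclre1c ranged from 26.2 to 53.8 CPM over all libraries and Xrcc4 from 10.8 to 17.5 CPM. Nhej1 was low throughout, at 3.22 to 8.23 CPM, and its lowest value rested on 11 counts in the DN3 library of WT05. Prkdc was at 178 CPM in the DN3 library of WT05 and at 45.2 to 77.4 CPM in the other 12 libraries. Its log2 fold change between Wt stages was -0.58 (SE 0.41), and 0.23 (SE 0.15) without that library.

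By edgeR at an adjusted p under 0.05, 2 of the 10 genes were called in Wt mice (Dntt and Xrcc6, both lower), against 22.9% of the 12691 genes tested, with 9.43% of all genes called lower and 13.4% called higher. DESeq2 called 3 of the 10, adding Rag2, against 27.6% of all genes. In KO-labelled mice 2 of 10 were called (Dntt and Xrcc5, both lower), against 18.6% of 12580 genes, with 7.34% of all genes called lower and 11.2% called higher. In these unpaired fits the share of members called was near the background. In the paired fits 4 of 10 stood against the 19.7% given above in Wt mice and 3 of 10 against 37.2% in KO-labelled mice, so the statement did not hold for the paired Wt fit. The median log2 fold change of the 3 lymphoid-specific genes was -0.92 in Wt and -0.05 in KO-labelled mice, that of the 7 end-joining genes -0.29 and -0.03, and that of all genes tested -0.03 and -0.02. The KO-labelled medians moved with single libraries: without DN4 KO45 they were -0.71 (lymphoid-specific) and -0.30 (end-joining), and without DN4 KO49 the former was 0.21. With library totals in place of TMM scaling, neither Dntt (adjusted p = 0.115) nor Xrcc6 (adjusted p = 0.296) passed in Wt mice. Library totals include the ribosomal RNA-like reads, 40.4% of counts in DN3 WT05, where Dntt was at 694 CPM by totals and 1204 when TMM-scaled. The median of all genes between the Wt stages was 0.16 by totals. All results by library totals in Wt stage comparisons share this scaling. In KO-labelled mice 2 of the 10 genes were called by totals.

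**Figure D3:**
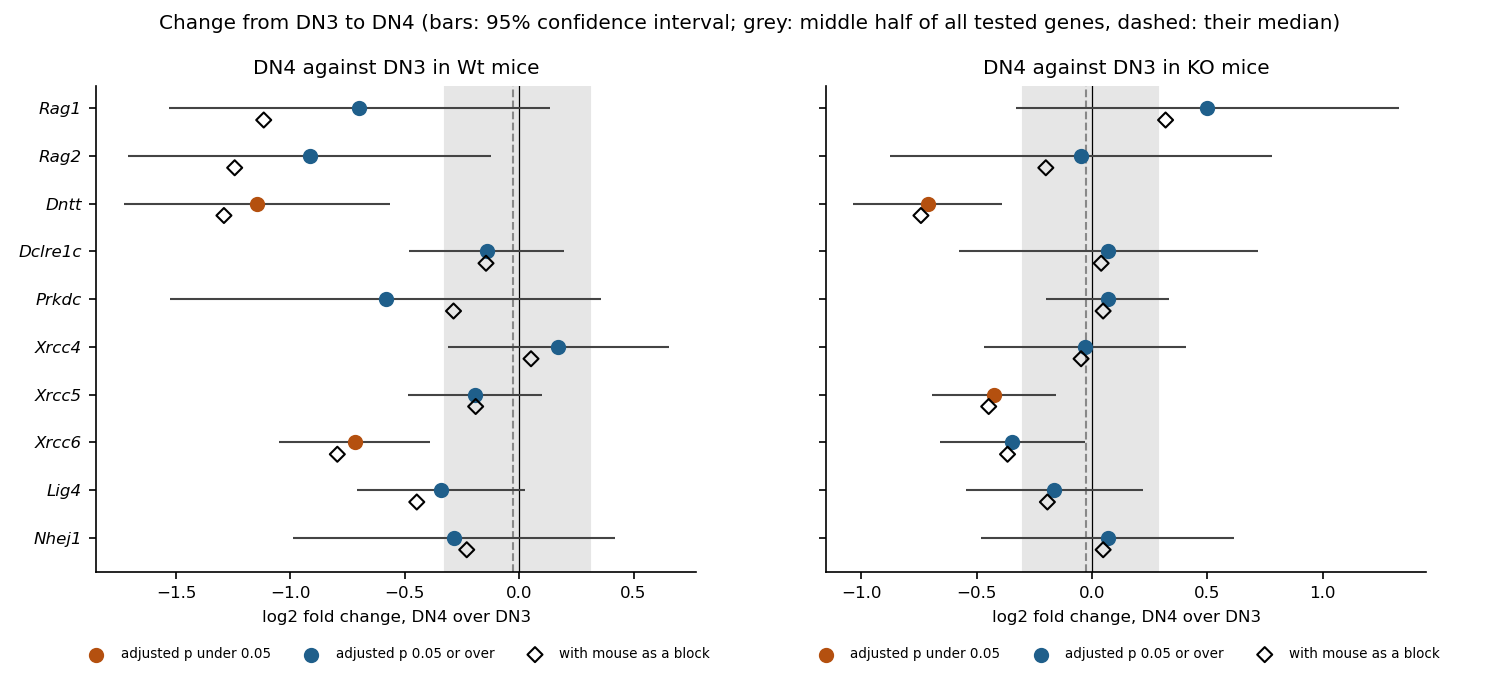
Log2 fold change of DN4 over DN3 for the 10 genes in Wt (left) and KO-labelled mice (right), with 95% intervals as bars, the interquartile range of all tested genes in grey and the fit with mouse as a block as open diamonds. In Wt mice 9 of the 10 estimates lay below 0, as did the median of all tested genes (-0.03). Of the 9, Prkdc was at 0.23 without DN3 WT05 and Nhej1 at 0.04 without DN3 WT46. The diamonds of Rag1 and Rag2 in Wt mice lay further from 0 than the unpaired estimates.

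The order of the 7 DN4 libraries by Rag1 and Rag2 was set beside that by markers of other thymic cells, after the values were seen and with no test. The ISP and DP markers summed to 3735 CPM in KO45, 2461 in WT40, 1812 in WT46, 1632 in KO51, 1302 in KO49, 1199 in WT05 and 1023 in WT48. KO45 and WT40 were also the highest and second highest for Rag1 and Rag2, and WT05 and WT48 the lowest, so that the order by marker sum and the order by either RAG gene differed only among WT46, KO51 and KO49. The order of the 7 libraries by Lig4 was the same as by the marker sum. That by Dntt departed from it at the top, where KO51, 4th by marker sum, came first. For single markers, Cd4 was at 671 CPM in KO45 and 249 in WT40, against 18.6 to 137 in the other 5 libraries.

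The B cell marker sum was highest in WT48, at 2142 CPM, where Rag1, Rag2, Dntt, Xrcc6 and Lig4 were all at their lowest, followed by KO49 at 1281, WT05 at 1162 and KO45 at 748 CPM. It was 311 CPM in WT46, 246 in WT40 and 165 in KO51, the library with the highest DN4 level of Dntt. The pro-B and pre-B cell genes Vpreb1 and Igll1, which mark the B lineage cells that rearrange their own receptor genes, summed to 0.585 to 4.88 CPM over all 13 libraries. The γδ T cell markers (Trdc, Sox13, Maf and Blk) summed to 522 to 1609 CPM in DN4, lowest in KO45 and highest in WT48. By this sum the DN4 libraries stood in the exact reverse of their order by the ISP and DP sum. No marker of the ISP and DP, B cell or γδ lists was at 0 in a DN4 library, and all CPM values of a library share 1 total. In its flow cytometry the study gated DN subsets on lineage-negative cells without CD4 or CD8, a gate that would remove DP cells and those B cells that the lineage antibodies mark; whether the sort for RNA used it is not given in the sources used here. The part of these cells in the levels of the recombination genes was not tested.

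**Figure D4:**
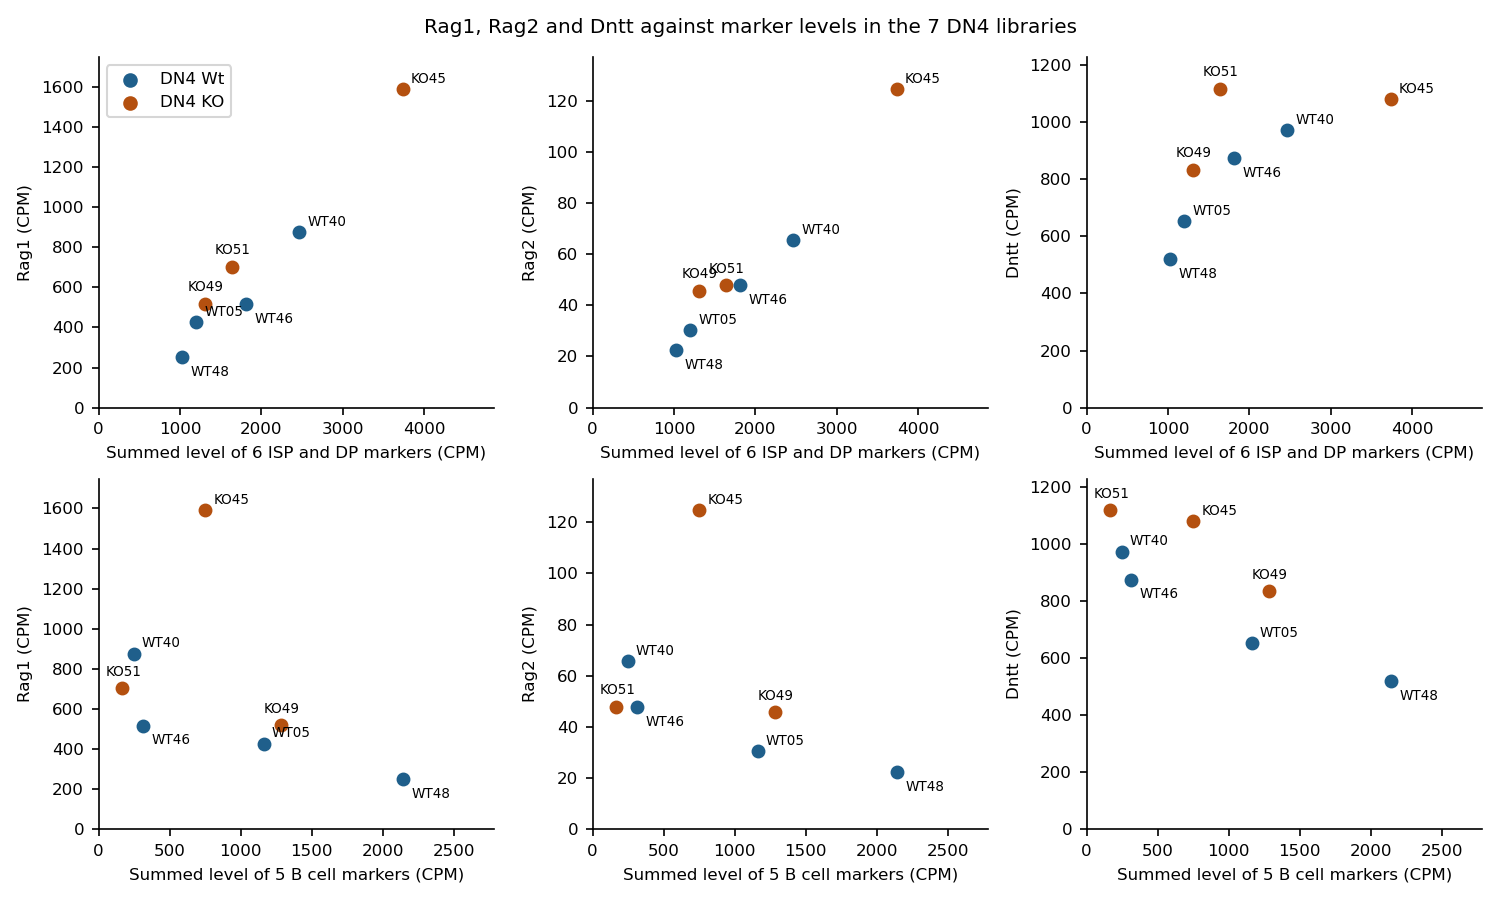
Rag1, Rag2 and Dntt (CPM) in the 7 DN4 libraries against the summed level of ISP and DP markers (top) and of B cell markers (bottom), with points coloured by genotype and named by mouse. KO45 had the highest Rag1 and Rag2 and the highest ISP and DP sum, and WT48 had the lowest Rag1, Rag2 and Dntt and the highest B cell sum.

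Of 10 further end-joining factors, 2 rose and 1 fell in Wt mice and 1 rose in KO-labelled mice, that is 3 of 10 and 1 of 10 called where 22.9% and 18.6% of all genes were. Polm, which encodes polymerase μ, a relative of terminal transferase that fills gaps at junctions, was at 8.04 to 11.4 CPM in DN3 and 23.8 to 58.6 CPM in DN4, with log2 fold changes of 2.07 in Wt (SE 0.27, adjusted p = 0.00132) and 1.96 in KO-labelled mice (SE 0.24, adjusted p = 0.00166). Poll, which encodes polymerase λ, rose in Wt mice (1.09, adjusted p = 0.0464), which did not pass with limma-voom (adjusted p = 0.0873). Cyren, an inhibitor of end joining, fell by 1.01 in Wt mice (adjusted p = 0.0041). With library totals in place of TMM scaling, neither Cyren (adjusted p = 0.108) nor Poll (adjusted p = 0.104) passed. With 1 library left out, Poll was called in Wt mice only without DN4 WT40 (adjusted p up to 0.09997 otherwise). Dntt and Polm, both polymerases of the X family, thus changed in opposite directions between the stages.

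The other repair routes are set against the same shares over all genes, 22.9% in Wt and 18.6% in KO-labelled mice. Counts at an unadjusted p under 0.05 are to be read against 35.5% and 33% of all genes. Of 6 genes of alternative end joining, 1 was called in each genotype. Lig3, a ligase of that route, fell by 0.61 in Wt (adjusted p = 0.0058) and by 0.36 in KO-labelled mice (adjusted p = 0.0397), the latter a call lost without any 1 of the 6 libraries (adjusted p up to 0.0947). With library totals Lig3 in Wt mice was at -0.39 (adjusted p = 0.337). Of 13 genes of the double-strand break response, which signals breaks, edgeR called 0 in either genotype; 4 in Wt and 3 in KO-labelled mice had an unadjusted p under 0.05, and neither DESeq2 nor limma-voom called any. Of 15 genes of homologous recombination, the repair route that copies a sister chromatid, edgeR and limma-voom called 0 and DESeq2 called 2 lower in Wt mice, where 3 had an unadjusted edgeR p under 0.05, and 0 was the count by all 3 tools in KO-labelled mice, also at an unadjusted edgeR p. Of 9 RAG cofactors and turnover genes, Ddb1, part of a ubiquitin ligase, fell by 0.49 in Wt mice (adjusted p = 0.0186), a call lost without DN3 WT48, DN4 WT05 or DN4 WT40 (adjusted p up to 0.0598). It was also lost with mouse as a block (-0.48, adjusted p = 0.11) and with library totals (-0.28, adjusted p = 0.608). In KO-labelled mice edgeR and limma-voom called 0 of the 9, 1 had an unadjusted edgeR p under 0.05, and DESeq2 called 1 lower. Of 17 proliferation genes edgeR called 0 in both genotypes, with 0 in Wt and 1 in KO-labelled mice at an unadjusted p under 0.05; limma-voom called 0 in both and DESeq2 called 1 higher in KO-labelled mice.

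Of the 17 transcription factors listed as Rag and Dntt regulators, 3 rose, 4 fell and 10 did not pass by edgeR in Wt mice, against 22.9% called over all genes. In KO-labelled mice 16 could be tested, of which 4 rose, 1 fell and 11 did not pass by edgeR, against 18.6%. DESeq2 called 5 higher and 4 lower in Wt mice, against 27.6% of all genes. In KO-labelled mice it called 6 higher and 2 lower, where it called 2948 genes in all. Foxo1, an activator of the RAG genes, was at 20.1 to 34.5 CPM in DN3 and 77.2 to 178 CPM in DN4, and rose by 2.43 in Wt (SE 0.25, adjusted p = 0.000417) and 2.15 in KO-labelled mice (SE 0.19, adjusted p = 0.000546). Ets1 rose in both as well, by 0.56 (adjusted p = 0.0187) and 0.67 (adjusted p = 0.0136), calls lost without DN3 WT46, DN3 WT48, DN4 WT05 or DN4 WT40 in the former (adjusted p up to 0.0808) and without DN3 KO49 or DN3 KO51 in the latter (adjusted p up to 0.0663). In Wt mice Ets1 also lost its call with mouse as a block (adjusted p = 0.0972) and with library totals (adjusted p = 0.0793). Runx1 fell by 1.46 in Wt (adjusted p = 0.00107) and 1.18 in KO-labelled mice (adjusted p = 0.000974).

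Myb fell by 1.09 (adjusted p = 0.00193) and Bcl11b, a T lineage factor, fell by 0.78 (adjusted p = 0.0235) in Wt mice. Zfp608, which encodes a zinc finger protein that represses the RAG genes in thymocytes, was at 3.30 to 4.16 CPM in DN3 Wt and 5.46 to 39.9 CPM in DN4 Wt; its rise (2.33, SE 0.70, adjusted p = 0.0444) did not pass with limma-voom (adjusted p = 0.204). Satb1, a chromatin organiser, rose in KO-labelled mice by 1.14 (adjusted p = 0.0156), from 507 to 587 CPM in DN3 to 912 to 1772 CPM in DN4. The remaining edgeR calls were Gfi1, which fell in Wt mice, and Ikzf1, which rose in KO-labelled mice. Satb1 lost its call without DN3 KO49 or DN3 KO51 (adjusted p up to 0.0755), Bcl11b without DN4 WT05, DN4 WT46 or DN4 WT48 (adjusted p up to 0.0767) and with library totals (adjusted p = 0.191), Myb with library totals (adjusted p = 0.0654), and Zfp608 without any DN3 library, DN4 WT05 or DN4 WT48 (adjusted p up to 0.129).

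Between the genotypes none of the 10 genes passed at either stage. In DN3, edgeR called 0 of 10 members, 0 at an unadjusted p under 0.05, and neither DESeq2 nor limma-voom called any; edgeR called 0 of 12105 genes in all, a background of 0%, with 168 at an unadjusted p under 0.05 and 3 called by DESeq2. The log2 fold change of KO-labelled over Wt was -0.35 for Rag1 (SE 0.19, interval -0.78 to 0.08), -0.07 for Rag2 (SE 0.20, interval -0.52 to 0.38) and -0.02 for Dntt (SE 0.22, interval -0.52 to 0.48). The widest was Prkdc at -0.94 (SE 0.45), which was -0.11 (SE 0.12) without the DN3 library of WT05. In that library the proliferation gene Mki67, chosen after the values were seen, was also high, at 2051 CPM against 409.9 to 644 in the other DN3 libraries. Over the 17 proliferation genes the median log2 fold change of KO-labelled over Wt in DN3 was -0.06, with 8 above 0. That of all genes was -0.005. The groups overlapped in CPM for every member, while 6.44% of all genes tested did not overlap.

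In DN4, edgeR called 0 of the 10 genes, against 7 of 13084 genes or 0.0535%, and DESeq2 and limma-voom called 0 as well. The log2 fold change was 0.90 for Rag1 (SE 0.48, interval -0.20 to 2.00), 0.85 for Rag2 (SE 0.46, interval -0.20 to 1.90) and 0.45 for Dntt (SE 0.23, interval -0.07 to 0.98). Without the DN4 libraries of KO45 and WT48, which held the highest Cd4 and the highest B cell marker sum but also the highest and the lowest DN4 levels of Rag1 and Rag2, so that leaving them out narrows the difference by construction, they were 0.04 (SE 0.32), -0.01 (SE 0.31) and 0.25 (SE 0.21). Without KO45 alone, Rag1 was 0.26 (SE 0.44) and Rag2 0.19 (SE 0.40).

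Xrcc6 was the 1 gene of the 10 whose DN4 groups did not overlap, at 348 to 457 CPM in KO-labelled and 242 to 336 CPM in Wt mice, where 7.08% of all genes tested did not overlap. Its log2 fold change was 0.48 (SE 0.16, interval 0.11 to 0.85, unadjusted p = 0.0165), which did not pass after adjustment (adjusted p = 0.856, and 0.36 to 1 over the alternatives). Without KO45 and WT48 it was 0.29 (SE 0.14). These held the highest and the lowest DN4 level of Xrcc6, so leaving them out narrows the difference by construction. The median log2 fold change in DN4 was 0.85 over the 3 lymphoid-specific genes, 0.18 over the 7 end-joining genes and 0.00226 over all genes tested. Without DN4 KO45 the first was 0.26 and the second -0.10.

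**Figure D5:**
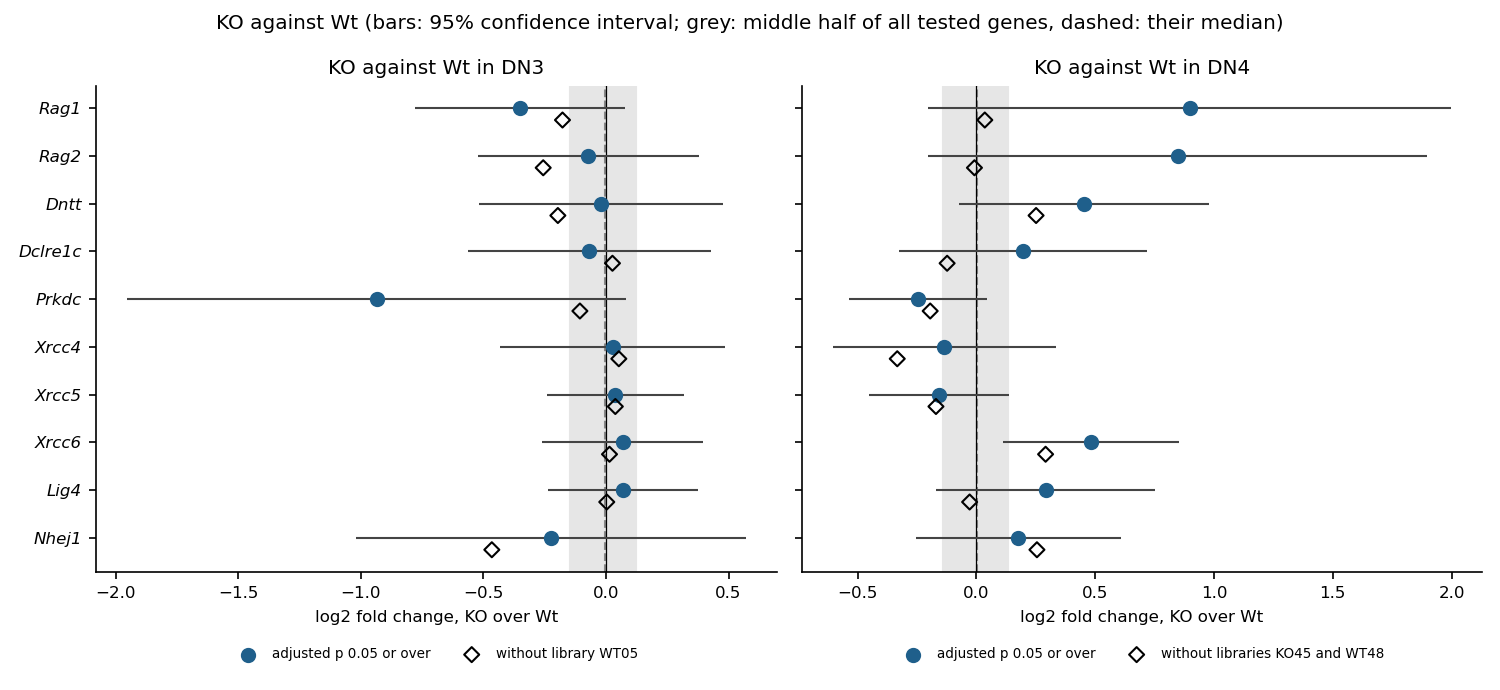
Log2 fold change of KO-labelled over Wt for the 10 genes in DN3 (left) and DN4 (right), with 95% intervals, the interquartile range of all tested genes in grey, and open diamonds for the fits without WT05 (DN3) or without KO45 and WT48 (DN4). No gene passed, and the diamonds of Prkdc in DN3 and of Rag1 and Rag2 in DN4 lay near 0. The libraries left out held extreme values of these genes, which narrows the differences by construction.

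The difference of the stage change between genotypes was tested as an interaction over all 13 libraries. edgeR called 0 of the 10 genes and 0 of 13361 genes, a background of 0%, with 0 members and 480 genes at an unadjusted p under 0.05; DESeq2 called 2 genes, neither of them a member, and limma-voom called 0. Rag1 had the largest estimate, 1.20 on the log2 scale (SE 0.58, interval -0.04 to 2.45, unadjusted p = 0.0574, adjusted p = 1), in the direction of a higher DN4 to DN3 ratio in KO-labelled mice. It was 0.43 (SE 0.53) without the DN3 library of WT05 and the DN4 library of KO45, which held the highest Rag1 of their groups, so that leaving out both narrows the estimate by construction. Rag2 stood at 0.88 (SE 0.56) and Dntt at 0.43 (SE 0.32). With mouse as a block, which leaves out WT40, 4 of the 10 genes had an unadjusted p under 0.05, as did 5.12% of 13717 genes, and edgeR called 0 after adjustment (adjusted p = 0.905 for each of the 4). These were Rag1 at 1.45 (unadjusted p = 0.00558), Rag2 at 1.05 (unadjusted p = 0.0221), Xrcc6 at 0.45 (unadjusted p = 0.0303) and Dntt at 0.57 (unadjusted p = 0.049). Of the other repair, cofactor, regulator and proliferation lists, edgeR and limma-voom called 0 genes between genotypes at either stage and in the interaction. At an unadjusted edgeR p under 0.05 there were 0 in DN3, 1 further end-joining factor, 1 break response gene and 2 regulators in DN4 (5.46% of all genes), and 1 further end-joining factor in the interaction (3.59% of all genes), and DESeq2 called 1 break response gene, higher in KO-labelled DN4.

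The genes whose pattern over the 13 libraries was most like each lymphoid-specific gene were found by the root mean square difference of centred log2(CPM + 1). For Rag1 they were Syt14 (0.255), Gm15558 (0.292) and Ppp1r3b (0.307), among 13360 genes ranked. For Rag2 they were Tctex1d1 (0.206), Prrt1 (0.207) and Card9 (0.233), and for Dntt Rgcc (0.144), Rnf157 (0.194) and Eepd1 (0.201). Syt14, Gm15558 and Tctex1d1 were low, at 0.203 to 8.52 CPM, and Eepd1 was at 3.04 to 12.8 CPM. Among the members, Rag2 came 10th in likeness to Rag1 (0.359), and Xrcc6 came closest to Dntt, in 41st place (0.257). Prkdc was the member least like each of them.

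The nearest genes to the RAG genes on chromosome 2 were compared between stages as well. Traf6, a signalling adaptor 28.9 kb from Rag1, was at 77.6 to 117 CPM over all libraries, with log2 fold changes of DN4 over DN3 of 0.03 in Wt (adjusted p = 0.92) and 0.15 in KO-labelled mice (adjusted p = 0.385). Prr5l, 64.8 kb away, rose from at most 0.907 CPM in DN3 to 7.80 to 17.2 CPM in DN4, by 5.26 in Wt (adjusted p = 5.77e-05) and 3.51 in KO-labelled mice (adjusted p = 0.000546). Gm10801 and Gm10800, over 2900 kb away on the other side, had at most 0.293 CPM in any library. B230118H07Rik, which overlaps both RAG genes and shares 80 exon bases with Rag1 on the same strand, was at 5.68 to 14.2 CPM, with log2 fold changes of -0.53 in Wt (adjusted p = 0.119) and 0.06 in KO-labelled mice (adjusted p = 0.921).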

How the data were processed

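RNA of sorted DN3 and DN4 thymocytes was sequenced from stranded mRNA libraries. The authors mapped the reads to mm10 with STAR and counted them per gene with featureCounts, and the deposited values are raw read counts, checked to be whole numbers for 47937 genes; versions are not given in the sources used here. Names, positions and exon lengths came from GENCODE M21 (GRCm38, the same assembly as mm10), where 47224 identifiers were found without their version. Each library took its group from its label.

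For each comparison, only the libraries of its groups entered the edgeR 4.0.16 quasi-likelihood test in R 4.3.3, after filterByExpr (minimum count 10) and TMM scaling, with Benjamini-Hochberg adjustment over all genes tested and a threshold of 0.05. All 10 members passed the filter in each comparison. The SE of a log2 fold change is its size divided by the square root of F. CPM uses TMM-scaled totals over all 13 libraries. Members had 11 to 22396 counts per library. The members and gene lists were chosen with earlier results of these data known. Of the other lists, 3 genes are not reported here and were left out of the counts and sums. All members are named; of the other lists, up to 3 called genes a direction with groups that did not overlap, the 3 most alike genes and the 2 nearest protein-coding neighbours a side. Gfi1 and Ikzf1, Mki67, Cd4 and the promoter windows shown were chosen after values were seen.

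Alternatives were DESeq2 1.42.0 size factors and Wald test, limma 3.58.1 voom, library totals, no filter beyond 1 count, at least 10 counts in every library, a single fit of all 13 libraries, dropping each library, mouse as a block, adjusted p of 0.1, a log2 fold change of 1, and the longest transcript as length. Fits without a pair of libraries were added after seeing the data. DN3 and DN4 libraries of a mouse come from the same animal by label; their deviations from group means correlated at 0.118 to 0.522 in each of 6 mice over 13361 genes. No pair of libraries within a group was a duplicate (smallest chi-squared per degree of freedom 5.83). The scripts were tested on simulated counts. Sequences came from a RefSeq table (GRCm38.p6). Flow cytometry and other assays were not analysed here.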

Additional observations from a re-analysis of the deposited data

How the results depend on the processing

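Over 890 results of single members under other settings, 866 kept their side of the threshold, 15 lost and 9 gained a call. These include the looser and the stricter threshold, which reuse the main fit and are not refits. A call could be lost only by Dntt and Xrcc6 in Wt mice, with 18 settings each, and by Dntt and Xrcc5 in KO-labelled mice, with 16 each. The other results were of members not called in the main fit, so most of the 866 had no call to lose. Of the called changes 0 turned direction, and 39 estimates of uncalled members changed sign. The count of members called was 2 in Wt mice between stages. It was 0 with library totals, 4 with mouse as a replicate block, 3 with the DESeq2 Wald test (adding Rag2), 3 at an adjusted p of 0.1 and 1 when a log2 fold change of 1 in size was also required; leaving out 1 library gave 1 (without DN3 WT46 or DN4 WT05, where Dntt had an adjusted p of 0.0544 and 0.0502) to 4 (without WT40). In KO-labelled mice the count of 2 became 1 with no filter beyond 1 count (Xrcc5 lost), 1 with all 13 libraries in one fit (Dntt lost), 0 when that size was required, and 1 to 2 with a library left out; in the paired fit it was 3. The cause of these changes was not tested, other than the stricter threshold itself. Between genotypes and in the interaction the count was 0 under each alternative. Over all genes, the count called between Wt stages went from 2903 to 1779 with library totals and 1724 when that size was required, and in KO-labelled mice from 2338 to 4899 with mouse as a block and 1385 with that size. In DN4 between genotypes it went from 7 to 51 with DESeq2 and 11 with no filter beyond 1 count, in DN3 from 0 to 3 with DESeq2 and 1 with no filter, and in the interaction from 0 to 2 with DESeq2. Leaving out 1 library gave 1845 to 3393 and 1407 to 2790 calls between stages and 0 to 8 between DN4 genotypes (0 without KO49, KO51, WT05, WT40 or WT46) and 0 to 1 between DN3 genotypes. Depth limits Nhej1 and Xrcc4 most: in the DN3 library of WT05 they had 11 and 44 counts.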

Other observations

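The ratio of Rag1 to Rag2 counts, which needs no scaling between libraries, was looked at after the values were seen. In KO-labelled mice it was 7.80 (KO45), 9.86 (KO49) and 8.98 (KO51) in DN3 and 12.8, 11.3 and 14.7 in DN4, so the stages did not overlap. In Wt mice it was 8.997 (WT46) and 7.68 (WT48) in DN3 and 14.0 (WT05), 13.4 (WT40), 10.8 (WT46) and 11.2 (WT48) in DN4, while in DN3 WT05, where ribosomal RNA-like genes took 40.4% of counts, it stood at 18.7. Of 6 mice with both stages, 5 had the higher ratio in DN4. Rag1 shares 80 of its 6608 exon bases with B230118H07Rik on the same strand, and Rag2 shares 208 of 3424 on the opposite strand.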
